A study of Mus musculus with 6 samples.

Results

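Laminins are proteins of the sheet of matrix on which many cells rest, and integrins are the receptors with which cells hold on to it. The laminin chains and integrin subunits were taken from the gene table by symbol alone, as every entry named Lama, Lamb or Lamc with a digit, Itga with a digit or letters, or Itgb with a digit. This gave 37 of the 23107 genes listed, of which 11 encode laminin chains and 26 encode integrin subunits. RNA was sequenced from aortic valves of outbred mice aged 4 months, with 3 libraries from controls and 3 from caAcvr1:Nfatc1Cre mutants. Mutants carry a transgene for a constitutively active form of Acvr1, a type I receptor for bone morphogenetic proteins, and a Cre recombinase inserted at the Nfatc1 locus that switches the transgene on. Nfatc1Cre acts in the endocardium and in some other cells of the valve region, so a mutant library mixes cells with and without the active receptor. The labels call the controls wild type, whereas the methods of the study allow as controls mice with either element alone or with neither, and do not say which were sequenced. How many mice went into each library was not stated, so p-values measure the spread between these libraries. The comparison addressed how an active Acvr1 changes the RNA of the valve.

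Laminins are secreted as trimers of 1 alpha, 1 beta and 1 gamma chain and form a network in the basement membrane, the sheet under endothelium and epithelium and around muscle cells. Integrins are receptors of 1 alpha and 1 beta subunit that bind matrix outside the cell and talin, kindlin and the actin cytoskeleton inside it. In the valve, the endocardium lies on a basement membrane and the interstitial cells sit in a matrix of collagen, proteoglycan and elastin, and in muscle and vessel wall each smooth muscle or cardiac cell is wrapped in laminin.

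The 6 libraries held between 32218343 and 55728854 fragments assigned to genes, and levels are given in CPM, the counts divided by the TMM-scaled size of the library. Markers of valve fibroblasts summed to between 13384 and 17308 CPM and those of endothelium to between 1960 and 2939 CPM, with no marker of either at 0. Cardiac muscle markers were also abundant, between 13154 and 42530 CPM, as were smooth muscle markers, between 3888 and 14389 CPM. Control replicate 2 stood apart, with 14389 CPM of smooth muscle markers, 1378 CPM of mesothelial markers and 215 CPM of epithelial markers, each the highest of the 6 libraries, and with 13154 CPM of cardiac muscle and 27.7 CPM of melanocyte markers, each the lowest. Of the epithelial markers in this library, Krt7 was at 115 CPM and Krt18 at 76.7 CPM, but Cdh1 at 3.16 CPM and Epcam at 0.396 CPM. Mutant replicate 1 was at the other end, with the lowest smooth muscle sum (3888 CPM) and the highest of cardiac muscle (42530 CPM). Control replicate 2 held the highest value of 18 of the 35 members tested (51.4%), against 24.4% of all genes tested. Mutant replicate 1 held the lowest of 12 (34.3%, against 20.1% of all genes). Acvr1 itself was counted at 49.1, 60.5 and 67.4 CPM in controls and at 56.5, 57.9 and 49.9 CPM in mutants. Reads of the transgene and of the resident gene are not separated in this table, so this value does not check the labels.

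No laminin or integrin gene differed between mutants and controls at an adjusted p under 0.05. The test was edgeR's quasi-likelihood test with Benjamini-Hochberg adjustment over the 15354 genes that reached 10 counts in 3 or more libraries, as 35 of the 37 members did (Lama1 and Itgad did not). It called 0% of all genes tested, and 529 genes (3.45%) had an unadjusted p under 0.05, of which 285 were lower in mutants (1.86% of all tested). Among the members, 3 had an unadjusted p under 0.05, Lamc3, Itga9 and Itgb5, and all 3 were lower in mutants. DESeq2 called 0 members against 26 genes in all (0.169%), with 3 members at an unadjusted p under 0.05 against 4.45% of all genes. Limma-voom with sample quality weights called 0 members and 0% of all genes, with 1 member, Itgb5, at an unadjusted p under 0.05 against 4.05% of all genes.

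The direction of the fold changes was uneven, with 10 members higher and 25 lower in mutants. The median log2 fold change was -0.15 over the members, against 0.0097 over all genes tested, of which 8013 were higher and 7341 lower. Laminin chains had a median of -0.12 (4 higher, 6 lower) and integrin subunits of -0.21 (6 higher, 19 lower). In 3 members, Itga1, Itga9 and Itgb5, every mutant library was below every control library, which compares with 4.83% of all genes tested. None was higher in every mutant, against 4.04% of all genes, and non-overlapping groups in either direction made up 8.87%. Without control replicate 2, 14 members were higher and 21 lower, the median was -0.11, and 0 members had an unadjusted p under 0.05 by edgeR. The laminin chains then turned to 6 higher and 4 lower, with a median of 0.02, whereas the integrin subunits had 8 higher and 17 lower, with a median of -0.19. The libraries that most often held the highest and the lowest member values, control replicate 2 and mutant replicate 1, were also the highest and the lowest for smooth muscle markers, of which 3 of 8 were lower in every mutant, and the part of these markers in the members' values was not tested.

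**Figure D1:**
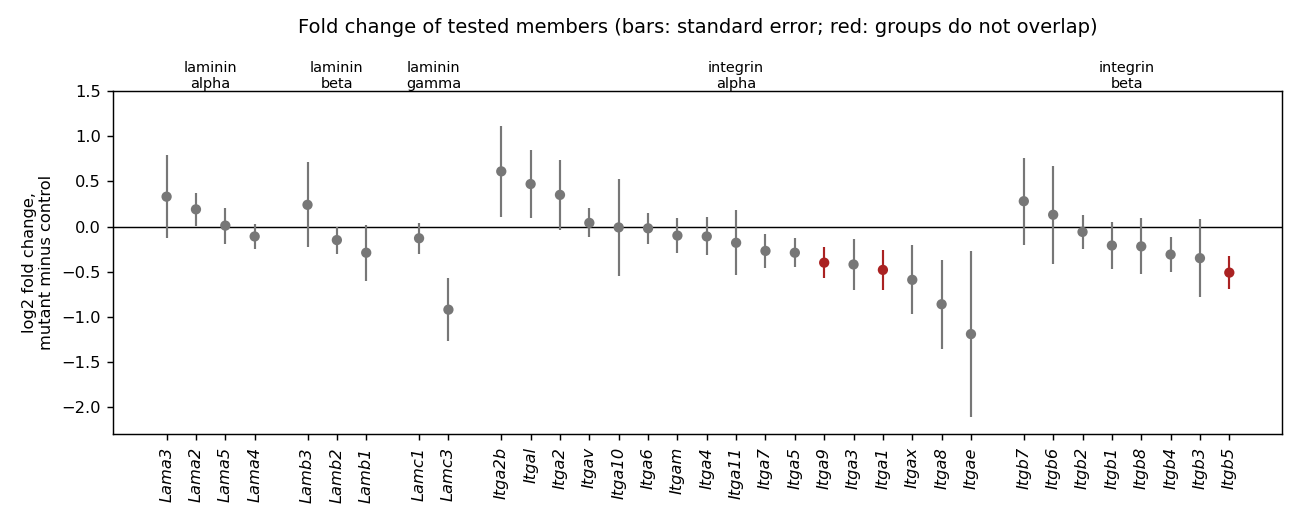
Log2 fold change (mutant minus control) of tested members on the vertical axis, grouped by chain family, with bars of 1 standard error (3 libraries against 3). Red points mark Itga9, Itga1 and Itgb5, whose groups do not overlap, and Lamc3 lies lowest among the laminin chains at -0.92.

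Of the genes whose groups do not overlap, Itgb5 and Itga1 have a RefSeq promoter entry set at the same start as the gene model used here, and their 250 bases upstream of that start are printed to show the sequence next to these genes. In GRCm38.p6 these windows are chr16:33829415-33829664 on the plus strand for Itgb5 and chr13:115101965-115102214 on the minus strand for Itga1, and capitals mark GC boxes (GGGCGG or its reverse complement CCGCCC).
Itgb5: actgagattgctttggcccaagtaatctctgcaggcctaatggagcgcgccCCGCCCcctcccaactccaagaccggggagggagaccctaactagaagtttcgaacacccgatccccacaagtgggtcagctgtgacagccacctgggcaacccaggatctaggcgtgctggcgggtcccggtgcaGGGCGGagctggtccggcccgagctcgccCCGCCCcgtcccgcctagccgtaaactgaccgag
Itga1: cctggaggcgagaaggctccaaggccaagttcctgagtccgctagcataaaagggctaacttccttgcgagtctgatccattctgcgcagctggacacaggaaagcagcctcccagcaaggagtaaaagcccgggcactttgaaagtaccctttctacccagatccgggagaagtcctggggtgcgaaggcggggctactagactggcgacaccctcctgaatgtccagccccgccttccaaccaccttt
The Itgb5 window is 65.2% G and C and holds 3 GC boxes, and the Itga1 window is 57.6% G and C and holds 0. A GC box was found in 32.7% of the 32851 promoter windows of the same length. Neither window holds CCAAT or TATAAA on either strand, which occur in 33.8% and 12.4% of the windows, or the CArG box to which serum response factor binds (1.47%). The RefSeq entry of Itga9 starts elsewhere than the gene model used here and is not shown.

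Among the laminin alpha chains, which carry the integrin-binding end of the trimer, Lama4 of the vascular and muscle basement membrane was the most abundant. Per kilobase of exon, the mean over the 6 libraries was 13.7 CPM for Lama4, 6.45 for Lama5, 3.26 for Lama2, 0.16 for Lama3 and 0.00546 for Lama1, and no neighbours in this order overlapped. Lama4 made up 59.7% ± 2.94 (SD, n = 3) of the summed alpha chain level in controls and 56.7% ± 2.81 in mutants. Lama5, the chain shared by most adult basement membranes, held 26.6% ± 3.51 and 27.8% ± 2.26, and Lama2, the chain of muscle and nerve laminins, held 13.1% ± 2.84 and 14.7% ± 2.61.

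Lama4 (chromosome 10, 38965515 to 39110188, mm10) was at 143, 202 and 171 CPM in controls and 164, 154 and 161 CPM in mutants. The mutant values lay inside the control range, and the log2 fold change was -0.11 (SE 0.14). Lama5 (chromosome 2, 180176373 to 180225859) was at 63.8, 96.4 and 59.0 CPM against 66.9, 72.5 and 82.2 CPM, with a log2 fold change of 0.01 (SE 0.20). Lama2 (chromosome 10, 26980036 to 27619758) was at 52.3, 45.5 and 51.4 CPM against 59.9, 42.0 and 68.1 CPM, a log2 fold change of 0.19 (SE 0.18; 0.04 without mutant replicate 3 and 0.36 without mutant replicate 2). Its lowest and its highest library were both mutants. Lama3, the alpha chain of the epidermal laminin, was at 1.79, 2.1 and 0.674 CPM in controls and 1.91, 1.64 and 2.2 CPM in mutants. Lama1, the alpha chain of the early embryo, had 7 counts in control replicate 2, 4 counts each in mutant replicates 1 and 2 and 0 in the other 3 libraries, where a count of 0 allows up to 3.

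Lamb2 accounted for nearly all of the beta chain RNA. Its mean level was 121 CPM per kilobase, against 8.09 for Lamb1 and 1.69 for Lamb3, with no overlap between neighbours. Its share of the beta chains was 92.4% ± 2.47 in controls and 92.7% ± 2.68 in mutants. Lamb2 (chromosome 9, 108479736 to 108490530) was at 769, 859 and 696 CPM in controls and 680, 692 and 725 CPM in mutants. The groups overlapped, because mutant replicate 3 was above control replicate 3, and the log2 fold change was -0.15 (SE 0.15), or -0.07 without control replicate 2. Lamb1, the beta chain of embryonic and many adult laminins (chromosome 12, 31265234 to 31329644), was at 62.6, 97.7 and 104 CPM in controls and at 102, 46.1 and 68.1 CPM in mutants. Mutants spanned a wider range than controls, with a log2 fold change of -0.29 (SE 0.31), which became -0.63 without mutant replicate 1 and -0.05 without mutant replicate 2. The ratio of Lamb2 to Lamb1 per kilobase ran from 10.8 to 24.5 over the libraries and did not separate the groups. Lamb3, the beta chain of the epidermal laminin (chromosome 1, 193207699 to 193343878), was at 6.75, 6.23 and 17.8 CPM against 15.1, 7.19 and 14.0 CPM, a log2 fold change of 0.24 (SE 0.47).

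Of the gamma chains, Lamc1 is part of most laminins and Lamc3 of laminins found in a few tissues. Lamc1 had a mean level of 27.9 CPM per kilobase, above Lamc3 at 3.82 in every library. Lamc1 (chromosome 1, 153218922 to 153332786) was at 202, 288 and 234 CPM in controls and 234, 188 and 239 CPM in mutants, a log2 fold change of -0.13 (SE 0.17). Of the mutants, 1 library lay below the control range and the others within it.

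Lamc3 showed the lowest fold change of the laminin chains. This gene (chromosome 2, 31887291 to 31946539) was at 25.4, 46.8 and 19.2 CPM in controls and 11.9, 16.3 and 20 CPM in mutants. Mutant replicate 3 lay just above control replicate 3, so the groups overlapped. The mean was 30.4 ± 14.5 CPM in controls and 16.1 ± 4.06 CPM in mutants (SD, n = 3), and the log2 fold change was -0.92 (SE 0.35; unadjusted p = 0.0344 and adjusted p = 0.999 by edgeR). DESeq2 gave an adjusted p of 0.669. Leaving out 1 library at a time moved the log2 fold change between -1.17 and -0.47, the latter without control replicate 2. As a share of the gamma chains, Lamc3 was 13.5% ± 3.74 in controls and 8.61% ± 2.22 in mutants, and Lamc1 was 81.4% ± 4.45 and 86.2% ± 1.28.

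**Figure D2:**
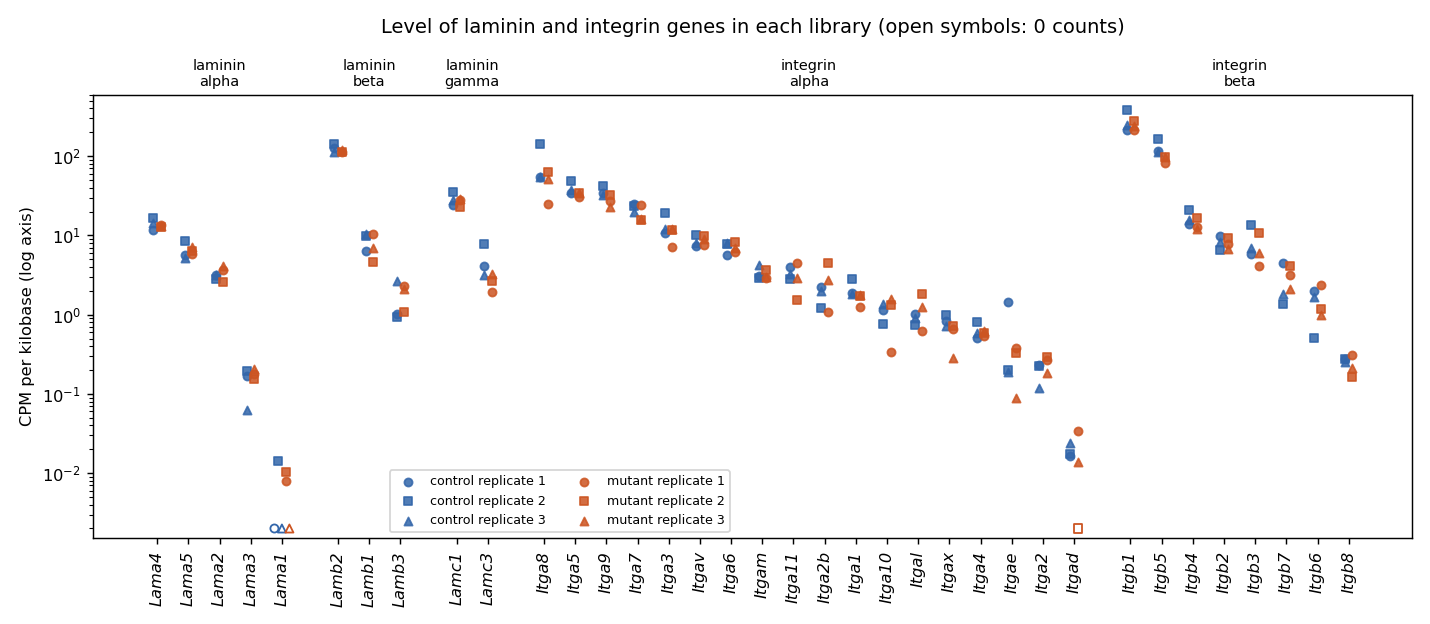
Level of the members in each library, in CPM per kilobase of exon on a log axis, ordered by mean within each chain family; blue symbols are controls and orange symbols mutants, and open symbols at the bottom mark 0 counts. Itgb1 at a mean of 262 and Lamb2 at 121 stand highest, and Lama1 and Itgad lowest.

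Summed over their chains, laminin beta stood above laminin gamma by between 3.38 and 4.49 times per kilobase in each library, with no separation of the groups. The gamma chains divided by the alpha chains gave 1.45, 1.59 and 1.45 in controls and 1.38, 1.22 and 1.36 in mutants. Every mutant was below every control, and the means were 1.5 ± 0.0817 and 1.32 ± 0.0868 (SD, n = 3). With the longest transcript as the length the same means were 0.981 and 0.875, again without overlap. Lamc3 made up 13.5% of the gamma chains in controls and 8.61% in mutants, and its part in this ratio was not tested. With 3 libraries against 3, an exact permutation test of 1 such ratio cannot give a two-sided p under 0.10.

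**Figure D3:**
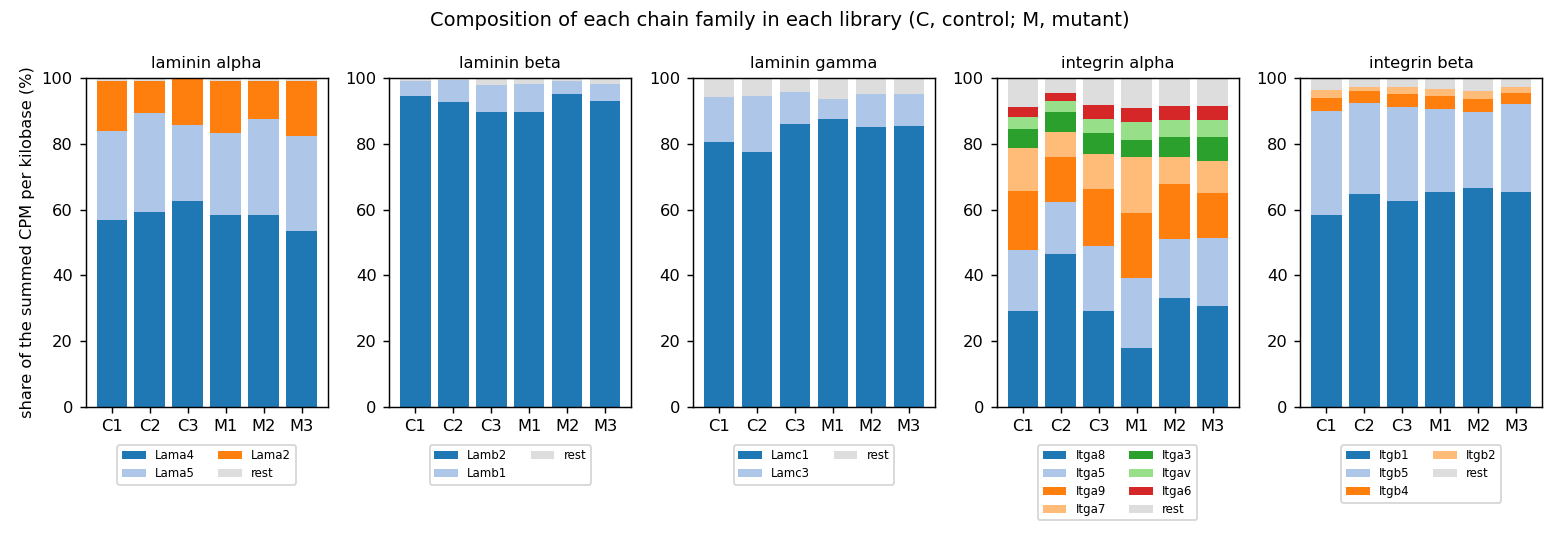
Share of each chain in the summed CPM per kilobase of its family (percent, vertical axis) for control libraries C1 to C3 and mutant libraries M1 to M3. Lamb2 fills between 89.7% and 95.2% of the laminin beta bars, and Itga8 ranges from 17.8% of the integrin alpha bar in mutant replicate 1 to 46.5% in control replicate 2.

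The integrin alpha subunits set which ligand is bound. Per kilobase, Itga8 had the highest mean at 65.5 CPM, followed by Itga5 at 36.8, Itga9 at 32, Itga7 at 20.6, Itga3 at 12.1, Itgav at 8.67 and Itga6 at 7.11, and each overlapped its neighbours in this order. Below a gap came Itgam at 3.27, and the other 10 alpha subunits were between 0.0177 (Itgad) and 3.16 CPM per kilobase (Itga11). The order of the abundant subunits depended on the length used, since Itga7 stood second with its longest transcript.

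Among alpha subunits of receptors for RGD motifs, Itga8 varied most. This gene (chromosome 2, 12106632 to 12301922) encodes a receptor subunit for fibronectin and nephronectin that is abundant in smooth muscle. It was at 408, 1061 and 400 CPM in controls and 184, 467 and 377 CPM in mutants. Control replicate 2 was far above the rest, and mutant replicate 2 was above the other two controls. The log2 fold change was -0.86 (SE 0.49) and was -0.24 without control replicate 2. Smooth muscle markers summed to 7914, 14389 and 7090 CPM in controls and 3888, 6632 and 7226 CPM in mutants, with the same highest and lowest library. Of the 8 smooth muscle markers 3, Myh11, Tagln and Smtn, were lower in every mutant, and Myh11 was at 975, 2367 and 974 CPM against 325, 828 and 830 CPM. Their part in the Itga8 values was not tested, and in whole valves fewer cells of a type and less RNA per cell cannot be told apart. An antisense gene on the opposite strand, E030013I19Rik, shares 372 exonic bases with Itga8, and the counting is not stated to use strand.

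Itga5, the alpha subunit of the main fibronectin receptor (chromosome 15, 103344286 to 103366763), was at 171, 243 and 184 CPM in controls and 149, 170 and 171 CPM in mutants. The groups met at 171 CPM, and the log2 fold change was -0.29 (SE 0.16), or -0.11 without control replicate 2. Itgav, which pairs with several beta subunits, was at 79.4, 110 and 86.6 CPM against 81.1, 106 and 96.6 CPM, so mutants lay within the control range. Itga2b, the platelet fibrinogen receptor subunit, was at 12.2, 6.53 and 10.8 CPM against 5.85, 24.4 and 14.8 CPM. The 8 platelet markers, none of them at 0, summed to between 71.7 and 80.6 CPM in controls and between 77.8 and 131 CPM in mutants, and their part in the Itga2b values was not tested.

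Among the alpha subunits that bind collagen, Itga1 (chromosome 13, 114953096 to 115101964), a receptor subunit for collagen IV found on smooth muscle, endothelial and mesenchymal cells, was at 35.4, 53.0 and 33.8 CPM in controls. In mutants it was at 23.2, 31.7 and 32.9 CPM, and all 3 were below the lowest control. The means were 40.7 ± 10.6 and 29.3 ± 5.31 CPM (SD, n = 3), and the log2 fold change was -0.48 (SE 0.22; unadjusted p = 0.0646, edgeR), or -0.24 without control replicate 2. Itga11, a receptor subunit for fibrillar collagen on fibroblasts, was at 20.4, 14.4 and 16.9 CPM against 23.1, 7.94 and 14.7 CPM. Itga10, known from cartilage, was at 5.86, 3.90 and 7.07 CPM against 1.74, 6.91 and 8.10 CPM. Neither separated the groups, nor did Itga2, a platelet and epithelial collagen receptor subunit, at 1.66, 1.6 and 0.848 CPM against 1.89, 2.07 and 1.29 CPM. Summed over these 4 genes, the level was 6.82 ± 0.371 CPM per kilobase in controls and 5.86 ± 0.854 in mutants, with every mutant below every control.

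The alpha subunits of laminin receptors, Itga3, Itga6 and Itga7, summed to 41, 50.2 and 39.6 CPM per kilobase in controls and 37.5, 35.9 and 35.2 in mutants. All mutants were below all controls (43.6 ± 5.73 against 36.2 ± 1.16), although none of the 3 genes separated the groups by itself. Itga7, the laminin receptor subunit of muscle, was at 199, 189 and 160 CPM against 195, 128 and 131 CPM. Itga3, a laminin receptor subunit of epithelia and other tissues, was at 61.0, 108 and 68.1 CPM against 41.2, 67.3 and 69.6 CPM. Itga6, which pairs with the products of Itgb1 and Itgb4, was at 51.4, 70.8 and 71.6 CPM against 55.1, 74.5 and 61.9 CPM.

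Itga9 encodes a receptor subunit for tenascin-C and other ligands, and is close in sequence to Itga4, whose product binds fibronectin and VCAM1. Itga9 (chromosome 9, 118606690 to 118901003) was at 265, 328 and 248 CPM in controls and 212, 247 and 177 CPM in mutants. The groups did not overlap, but the gap between control replicate 3 and mutant replicate 2 was 248 against 247 CPM. The means were 280 ± 42.4 and 212 ± 34.6 CPM (SD, n = 3), and the log2 fold change was -0.40 (SE 0.17; unadjusted p = 0.0491 and adjusted p = 0.999, edgeR). With 1 library left out the log2 fold change ran from -0.53 to -0.27. Itga4 was at 7.17, 11.2 and 8.15 CPM against 7.43, 8.27 and 8.76 CPM, and 1124 of its exonic bases overlap Cerkl on the opposite strand.

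The alpha subunits of leukocyte integrins were low, with a sum over 5 genes of 5.74 ± 0.831 CPM per kilobase in controls and 5.23 ± 1.14 in mutants, and the groups overlapped. Itgam, of macrophages and neutrophils, was at 15.6, 14.4 and 21 CPM in controls and 14.4, 18.3 and 14.8 CPM in mutants. Itgb2, the beta partner of the products of Itgam, Itgal, Itgax and Itgad, was at 30.3, 19.8 and 25.2 CPM against 23.5, 28.1 and 20.6 CPM. Myeloid markers, by contrast, summed to 1469, 1307 and 1400 CPM in controls and 1727, 1911 and 1840 CPM in mutants, higher in every mutant, and 4 of the 12 (Cd68, Lyz2, C1qa and C1qb) separated the groups one by one, against 4.04% of all genes. Lyz2 had the highest level of these markers, with means of 757 CPM in controls and 1045 CPM in mutants. The markers beyond these 4, among them Ptprc, Csf1r, Emr1 and Aif1, overlapped between the groups. Itgal of lymphocytes was at 6.66, 4.92 and 5.89 CPM in controls and 4.05, 12.1 and 8.1 CPM in mutants. Its highest library, mutant replicate 2, also had the highest lymphocyte marker sum (45.5 CPM), whose part was not tested. Itgae, of T cells within epithelia, was at 6.59, 0.929 and 0.87 CPM against 1.72, 1.52 and 0.408 CPM, so that control replicate 1 stood alone. Itgax, of dendritic cells and macrophages, was at 4.03, 4.69 and 3.48 CPM against 3.19, 3.49 and 1.38 CPM. Itgad had 4, 4 and 5 counts in controls and 8, 0 and 2 in mutants, too few to compare.

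The beta subunits were led by Itgb1, the common partner of 12 alpha subunits, at a mean of 262 CPM per kilobase. Itgb5 followed at 112, Itgb4 at 15.4 and Itgb2 at 8.06, each below the former in every library, then Itgb3 at 7.88, Itgb7 at 2.85, Itgb6 at 1.45 and Itgb8 at 0.248. Itgb1 (chromosome 8, 128685654 to 128733200) was at 878, 1551 and 1012 CPM in controls and 873, 1127 and 971 CPM in mutants. The groups overlapped, with a log2 fold change of -0.21 (SE 0.26) that turned to 0.07 without control replicate 2. Itgb4, the partner of Itga6 in hemidesmosomes (chromosome 11, 115974709 to 116008412), was at 98.4, 149 and 111 CPM against 89.8, 115 and 84.4 CPM, a log2 fold change of -0.31 (SE 0.19), or -0.11 without control replicate 2. Itgb3, a beta subunit of the vitronectin receptor and of the platelet fibrinogen receptor, was at 34.6, 80.6 and 41.1 CPM against 24.3, 62.8 and 35.9 CPM. Replicate 2 was the highest of its group for Itgb1, Itgb3 and Itgb4 in controls and in mutants. Itgb7 of lymphocytes was at 12.6, 3.76 and 5 CPM in controls and 8.69, 11.4 and 5.9 CPM in mutants. Itgb6, an epithelial partner of Itgav, was at 14.2, 3.58 and 11.8 CPM against 16.8, 8.37 and 6.97 CPM, and Itgb8, another partner of Itgav, at 3.02, 3.07 and 2.76 CPM against 3.42, 1.82 and 2.35 CPM. None of these 3 low beta subunits separated the groups.

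Itgb5, which pairs with Itgav to bind vitronectin, had the lowest unadjusted p of the members. The gene, whose upstream sequence with 3 GC boxes is printed above (chromosome 16, 33829665 to 33949338), was at 416, 583 and 402 CPM in controls and 291, 343 and 350 CPM in mutants. All 3 mutants were below the lowest control by more than 1.1-fold, the only member for which this held. Within each group the libraries stood in the same order as for the smooth muscle marker sum, which ran from 3888 CPM in mutant replicate 1 to 14389 CPM in control replicate 2, and Myh11, Tagln and Smtn were also lower in every mutant, with log2 fold changes of -1.12, -0.90 and -0.87. Without control replicate 2 these fold changes were -0.56, -0.52 and -0.48, and with all libraries the adjusted p was 0.999 for each (edgeR). The part of these markers in the Itgb5 values and in its ratios was not tested. The means were 467 ± 101 and 328 ± 32.1 CPM (SD, n = 3). The log2 fold change was -0.51 (SE 0.18; unadjusted p = 0.0271 and adjusted p = 0.999, edgeR), and DESeq2 gave an adjusted p of 0.622. It ran from -0.61 to -0.32 when 1 library was left out, the latter without control replicate 2.

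**Figure D4:**
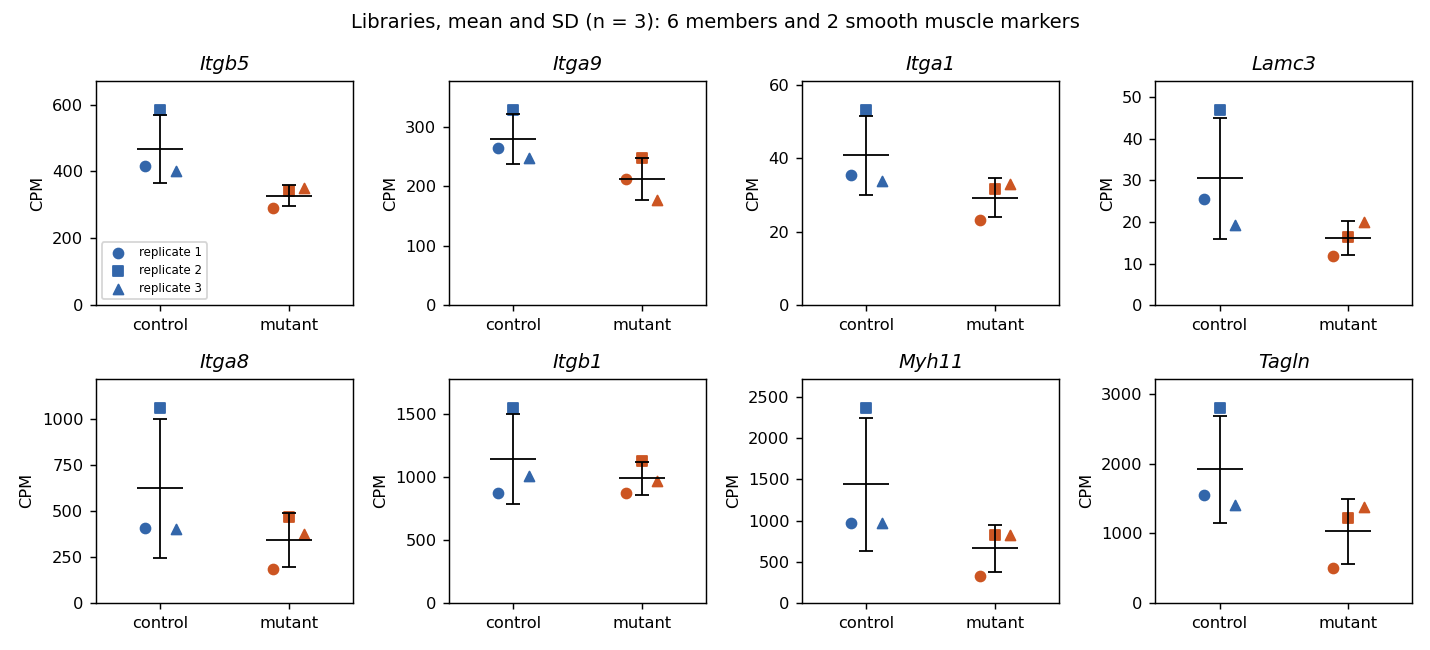
CPM in each library (vertical axes from 0) for 6 members and for the smooth muscle markers Myh11 and Tagln, with the group mean and SD (n = 3) as bars; symbols give the replicate number, blue for controls and orange for mutants. Control replicate 2 is the highest library in all 8 panels, and the mutants of Itgb5 lie at 291 to 350 CPM, below the lowest control at 402 CPM.

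Ratios between subunits of 1 library do not depend on its sequencing depth. Itgb5 divided by Itgav per kilobase was 15.8, 16.1 and 14 in controls and 10.9, 9.82 and 11 in mutants, 15.3 ± 1.11 against 10.5 ± 0.627 (SD, n = 3). The gap between the groups was wider than the spread within either, and control replicate 2 was close to the other controls. With longest transcripts the means were 10.9 and 7.49. Among the beta subunits, Itgb5 held 29.4% ± 2.04 in controls and 25.1% ± 1.86 in mutants, lower in every mutant, and Itgb1 held 61.9% ± 3.25 and 65.8% ± 0.733, higher in every mutant. Itgb1 divided by the sum of its 12 alpha partners was 1.19, 1.25 and 1.39 in controls and 1.59, 1.52 and 1.49 in mutants, so every mutant was above every control (1.28 ± 0.1 against 1.53 ± 0.0515). Of these partners, Itga8 had the highest mean level per kilobase. It was at 408, 1061 and 400 CPM in controls and 184, 467 and 377 CPM in mutants. The part of Itga8 in the Itgb1 ratio was not tested. Itgb4 divided by Itga6 ran from 1.75 to 2.71 and its groups overlapped. These ratios were chosen after the values were seen, so their separation is a description.

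Of 46 genes of the adhesion complex inside the cell, 44 were tested, 14 were higher and 30 lower in mutants, and the median log2 fold change was -0.18. None had an adjusted p under 0.05 by edgeR, and 2, both lower, had an unadjusted p under 0.05, against 3.45% of all genes tested. Control replicate 2 was the highest library for 29 of the 44 (65.9%, against 24.4% of all genes) and mutant replicate 1 the lowest for 18 (40.9%, against 20.1%), the same libraries that were highest and lowest for smooth muscle markers, whose part was not tested. Without control replicate 2, 18 genes were higher, 26 were lower and the median was -0.03. Tns1, which links integrins to actin, was at 769, 1232 and 851 CPM in controls and 611, 661 and 699 CPM in mutants, a log2 fold change of -0.53 (SE 0.22), or -0.30 without control replicate 2. Kank1, which binds talin at the rim of adhesions, was at 365, 490 and 344 CPM against 308, 327 and 259 CPM (-0.42, SE 0.18; -0.25 without control replicate 2). For Tln1, the talin that binds integrin tails, the values were 329, 519 and 328 CPM against 278, 316 and 305 CPM (-0.39, and -0.13 without control replicate 2), and for the adaptor Bcar1 68.4, 79 and 72 CPM against 61, 67.4 and 58.4 CPM. All 4 were lower in every mutant, and in the list as a whole 5 genes were lower and 2 higher without overlap, where 4.83% and 4.04% of all genes were.

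Of 35 further basement membrane genes, 34 were tested, with 12 higher, 22 lower, a median log2 fold change of -0.11 and 0 at an unadjusted p under 0.05 by edgeR (3 by DESeq2), against 3.45% and 4.45% of all genes. Without control replicate 2, the highest library for 17 of them, 17 were higher and 17 lower and the median was -0.0026. Col4a1, a chain of the collagen IV network that binds to laminin, was at 536, 847 and 694 CPM in controls and 437, 532 and 530 CPM in mutants (-0.47, SE 0.20; -0.30 without control replicate 2). Col18a1, the source of endostatin, was at 603, 1298 and 606 CPM against 283, 547 and 531 CPM (-0.88, SE 0.39; -0.41 without control replicate 2). These were the only 2 genes of the list without overlap, a number close to the 4.83% of all genes that were lower without overlap, and control replicate 2 was the highest library for each.

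Of 44 ligands of integrins outside the laminins and basement membrane, 39 were tested, 14 were higher and 25 lower, and the median log2 fold change was -0.12. Without control replicate 2, the highest library for 17 of them, 15 were higher and 24 lower and the median was -0.04. At an unadjusted p under 0.05 by edgeR there were 4, against 3.45% of all genes tested, and none passed after adjustment. Tnc, the tenascin-C to which the product of Itga9 binds, was at 14, 18.8 and 17.1 CPM in controls and 7.51, 11.3 and 6.97 CPM in mutants, a log2 fold change of -0.95 (SE 0.23). Vtn, the vitronectin to which the product of Itgb5 binds, was at 5.82, 5.2 and 10.3 CPM against 3.67, 3.31 and 3.86 CPM (-0.98, SE 0.30; -0.61 without control replicate 3). Ltbp1, which holds latent TGF-beta in the matrix, was at 396, 533 and 455 CPM against 340, 369 and 299 CPM (-0.46, SE 0.16). Edil3, an RGD protein of endothelium and cartilage, was the one that was higher, at 31.8, 27.5 and 35.5 CPM against 40.8, 67.9 and 48.8 CPM (0.73, SE 0.20). The groups of these 4 genes did not overlap, and over the list 2 genes were higher and 6 lower without overlap, against 8.87% of all genes in either direction.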

How the data were processed

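Aortic valve RNA was extracted with RNeasy columns, made into libraries with the Illumina TruSeq RNA kit and sequenced on a HiSeq4000. Per the submitters' processing notes, reads were aligned to mm10 with TopHat2 2.0.13 and Bowtie2 2.2.1 and summarised with Cufflinks and Cuffdiff 2.1.1. The authors deposited estimated counts of fragments per gene, not normalized, of which between 1.66% and 1.87% per library were not whole, and these were rounded. All 6 columns were used.

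Genes that reached 10 counts in 3 or more libraries (15354 of 23107) were tested with edgeR 4.0.16 (quasi-likelihood, TMM scaling, no covariate) in R 4.3.3, with Benjamini-Hochberg adjustment over all of them. The biological coefficient of variation was 0.278. Alternatives were DESeq2 1.42.0, limma 3.58.1 (voom with sample quality weights), other scalings and filters, a replicate block and leaving out each library. Standard errors are the fold change divided by the square root of F. CPM used TMM library sizes; levels per kilobase divide by the union of exons in GENCODE release M21, or by the longest transcript. Limits from a count of 0 cover counting error only. Promoter sequences are from RefSeq on GRCm38.p6; 23 members have an entry.

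The members, the gene lists and the marker lists were chosen with earlier results of these data known, and the ratios after the member values were seen. Members are given with their levels, apart from 1 that is counted but not reported here by itself; fold changes are given for members whose groups do not overlap and for the 3 with the highest mean level per kilobase in each chain family. In each other list, up to 4 genes of lowest unadjusted p among those without overlap are named. Replicate numbers were treated as names only, since the labels do not say that a number marks a shared batch or litter. The deviations of same-numbered libraries correlated at 0.373, 0.171 and 0.0194. Without values for libraries of different number, these correlations cannot decide whether the numbers mark pairs.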

Additional observations from a re-analysis of the deposited data

How the results depend on the processing

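No member had an adjusted p under 0.05 in any alternative fit, and the median log2 fold change of the members stayed between -0.20 and -0.11. The number of members at an unadjusted p under 0.05, 3 by edgeR, was 2 with upper-quartile scaling and 2 with a mean count of at least 100 (Lamc3 and Itgb5 in both), 1 with limma-voom, and from 0 to 5 with 1 library left out. The genes then changed: Itgb5 was among them in 2 of the 6 fits, and without mutant replicate 1 they were Itga7, Itga2b and Itgal. The number whose groups did not overlap, 3, was 2 with upper-quartile scaling, 1 when a gap of 1.1-fold was required and from 3 to 7 with 1 library left out, where fewer libraries separate more often (from 16.6% to 20% of all genes). For the adhesion complex (2 genes at an unadjusted p under 0.05) the count was 1 with upper-quartile scaling, 1 with a mean count of at least 100, 0 with limma-voom and from 0 to 3 with 1 library left out. For the basement membrane (0) it was 3 with DESeq2, 1 without the filter on low counts and from 0 to 5 with 1 library left out, and for integrin ligands (4) from 3 to 8. Giving the medians of lists without control replicate 2 was chosen after seeing the data; that of the laminin chains turned from -0.12 to 0.02.

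With the replicate block, 7 members, 9 adhesion complex genes and 4 basement membrane genes had an unadjusted p under 0.05, and by edgeR 0 genes passed after adjustment (814 of all genes had an unadjusted p under 0.05). The labels do not say that a number marks a shared batch or litter, and the correlations of same-numbered libraries (0.373, 0.171 and 0.0194) do not decide it.

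Of 15 members given with a fold change, 10 kept their direction in all settings and 5 did not when 1 library was left out. Lama4 ran from -0.23 to 0.02, Lama5 from -0.12 to 0.27, Lamb3 from -0.02 to 0.90, Lamc1 from -0.24 to 0.02 and Itgb1 from -0.37 to 0.07. For all of these but Lama5 the turn came without control replicate 2, and the cause was not tested. With longest transcripts Lama4 made up 70.7% of the alpha chains in controls and Lamb2 88.8% of the beta chains. Depth limits Lama1 and Itgad, with at most 7 and 8 counts.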
